A study of Mus musculus with 2 samples.

Results

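N6-methyladenosine (m6A) sites outside the DRACH motif that were listed in the cerebrum and not in the cerebellum numbered 88825, of 212798 sites listed in either tissue on chromosomes 1 to 19. They were selected on the 2 site lists themselves: a member is in the cerebrum list, has no entry with the same chromosome, position and strand in the cerebellum list, is an A on its strand in GRCm38, and has a 5-mer, the base with 2 neighbours on each side, that is not DRACH (in DNA letters, position −2 anything but C, position −1 a purine, then A and C, and position +2 anything but G). Both lists came from GLORI on poly(A)+ RNA, with 1 library per tissue. Both tissues were female, at P0 and of the hybrid F1r, the offspring of a C57 mother and a PWK father, and the study's methods name a single mouse as their source. No treatment or mutation was compared. The cerebrum list held 182625 sites on these chromosomes and the cerebellum list 76905, and the name of the former also holds the short form used for the cerebellum. Each list was assigned to the tissue in its sample record. The lists give positions only, with neither a methylation level nor the reads behind it, so depth is unknown. As nothing was replicated, the tissues were not tested against each other, and shares carry 95% Wilson intervals in parentheses that cover counting error over sites alone and treat sites of 1 transcript as independent.

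In mammals most m6A is written on nascent polyadenylated transcripts by the METTL3 and METTL14 complex, which prefers DRACH and leaves most of its marks near stop codons and in long exons. METTL16 is a second writer with a different preference: it methylates an adenosine in U6 small nuclear RNA and in hairpins of the 3′ UTR of Mat2a, which encodes the S-adenosylmethionine synthetase subunit. GLORI deaminates unmethylated adenosine, which is then read as G, while m6A is still read as A. An adenosine that escapes deamination is read as A as well.

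The non-DRACH 5-mers were sorted by the base that departs from DRACH, and the following members show the 2 most frequent 5-mers of each class. For each 5-mer, the site is the member nearest to the stop codon in a coding gene chosen by its number of members with that 5-mer. Only members in exons of coding transcripts were counted for this choice, from 2 in Agpat5 to 5 in Bcl11b. With introns included, other genes may hold more members with the same 5-mer. The 5-mer is in capitals with the listed A at its centre, within 10 bases on either side, 5′ to 3′ on the transcript strand, from the RefSeq copy of GRCm38. The first pair of lines has C in place of D at position −2, and the pairs after it have C or T in place of R at −1, another base in place of C at +1 and G in place of H at +2. The last pair departs from DRACH at 2 positions or more.
Arhgap32, chr9:32260633-32260653, + strand, coding sequence in exon 13 of 13: gagccaagCAACTaccataac
Dpy19l4, chr4:11264983-11265003, − strand, 3′ UTR in exon 19 of 19: tatcacaaCAACAatgtgtgc
Agpat5, chr8:18885324-18885344, + strand, 3′ UTR in exon 8 of 8: gagttgtgACACAtggctgcc
Pogz, chr3:94879797-94879817, + strand, coding sequence in exon 19 of 19: cagaagaaGTACTggccctgc
Fat3, chr9:15915248-15915268, − strand, coding sequence in exon 26 of 26: ggtgaaacGGATTtggggggc
Bcl11b, chr12:107913055-107913075, − strand, 3′ UTR in exon 4 of 4: atgagaagAAAAAaaagtcct
Gprin1, chr13:54738276-54738296, − strand, coding sequence in exon 2 of 2: ccacgcgaGGACGcgggcacc
Mn1, chr5:111421673-111421693, + strand, coding sequence in exon 1 of 2: ggagcacaGAACGgtgacagc
Hectd4, chr5:121360686-121360706, + strand, coding sequence in exon 70 of 76: cctccgtgCCATCttctcagc
Gpr161, chr1:165306317-165306337, + strand, coding sequence in exon 2 of 6: catcatcaTCATCactgtcct
The distance to the nearest DRACH site of the cerebrum list in the transcript ranged from 6 nt at the GAACG site of Mn1 to 1747 nt at the ACACA site of Agpat5. Both have 5-mers 1 base away from DRACH. The other such sites lay 9 to 87 nt from one, the CCATC site of Hectd4 867 nt and the TCATC site of Gpr161 787 nt.

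Absence from the cerebellum list was common among all cerebrum sites, at 74.4% of the 182267 at an A on these chromosomes, and at 91.8% (91.6 to 91.9) of those outside DRACH. These shares follow from the rule that chose the members and are given as a description. Among non-DRACH cerebrum sites, absence ranged from 66.3% (64.5 to 68.1) where the 5-mer has G at +2 to 94.9% (94.7 to 95.1) where it departs from DRACH at 2 positions or more. By region it was 98.2% in introns, 86.5% in 3′ UTRs and 86.4% in coding sequence. Only 179 members had a cerebellum site within 1 nt, and 8.78% (8.60 to 8.97) had one within 50 nt. That share was 17.2% (16.9 to 17.6) for members in exons of coding transcripts and 2.21% (2.06 to 2.36) for those in introns, against 20.5% (20.1 to 20.9) for the DRACH sites found only in the cerebrum list. At the level of genes, 12895 genes held a member and 8136 of them also had a cerebellum site. These 8136 genes held 89.0% of the members that lay in a gene.

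The member list as a whole departed little from its surroundings in class, while single classes and 5-mers did. The 5-mer was 1 base away from DRACH at 38.5% (38.2 to 38.8) of the members and at 39.3% of the 2024067 uncalled non-DRACH adenosines on the same strand within 50 nt, a ratio of 0.981 (0.973 to 0.989). Over the 19 chromosomes the share ranged from 37.2% to 41.2%. The class with G at +2 was the one that stood out, at 1.96% of members against 0.419% of uncalled adenosines, which is 4.68-fold (4.47 to 4.91). The class with C at −2 was 1.36-fold (1.30 to 1.43) more frequent at members and that with C or T at −1 1.17-fold (1.15 to 1.19). The class without C at +1 was less frequent, at 0.851-fold (0.841 to 0.861), and 5-mers 2 or more bases away were as frequent as around the sites, at 1.01-fold (1.01 to 1.02). Cerebellum-only non-DRACH sites gave similar ratios, from 4.20-fold for G at +2 to 0.920-fold without C at +1. Non-DRACH sites in both lists departed far more from their surroundings: 63.0% (62.0 to 64.1) were 1 base away from DRACH, and the class with G at +2 was 19.1-fold (18 to 20.3) more frequent than nearby.

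**Figure D1:**
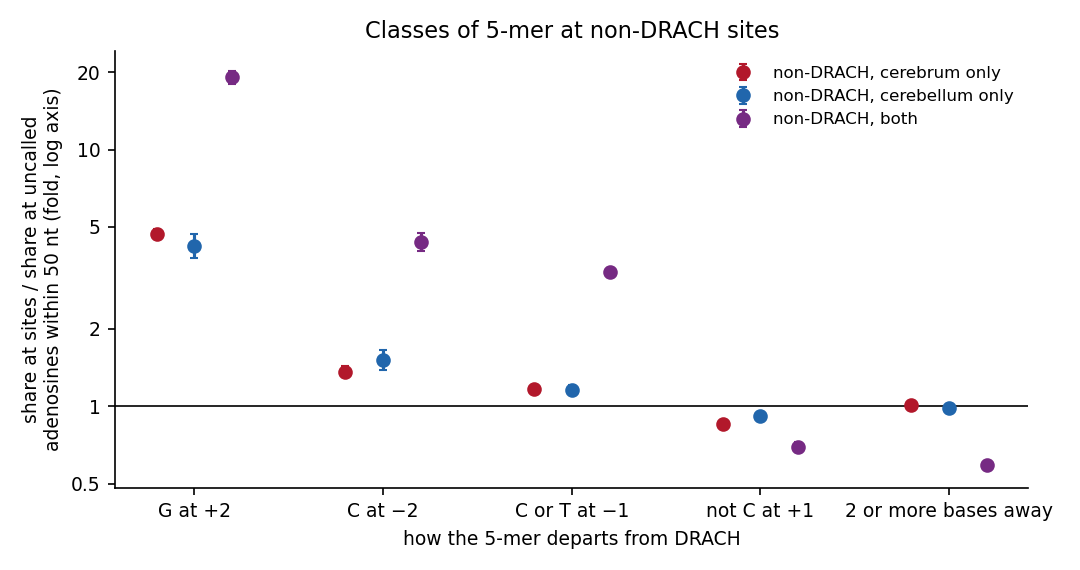
Share of each class of 5-mer at non-DRACH sites divided by its share at uncalled non-DRACH adenosines within 50 nt (log axis), for sites in the cerebrum list only, the cerebellum list only and both. Bars are 95% Wilson intervals over sites. Cerebrum-only sites stand at 4.68 for G at +2 and near 1 in the other classes, and sites in both lists at 19.1 for G at +2.

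All 238 non-DRACH 5-mers occurred, with 18 members for the rarest and a median of 328. The most frequent were CCATC with 1537 members, TCATC with 1494 and TCATT with 1291. Their shares of 1.73%, 1.68% and 1.45% stood 3.01-fold, 2.95-fold and 1.69-fold over uncalled adenosines nearby. Relative to nearby adenosines, GGACG was the most frequent of all, at 14.0-fold with 693 members, and GTACT with 1092 members and GGATT with 1171 stood at 4.87-fold and 4.47-fold. Sequences 1 base away from DRACH thus shared the top of the list with sequences ending in ATC. All 16 5-mers ending in ATC were over 1-fold, from 1.05 to 3.01. In contrast AAAAA, with 890 members, stood at 0.692-fold. ACACA, with 1146 members, stood at 0.831-fold, and 63.3% of its members lay in sequence that the genome file marks as repeats. Over the 238 5-mers, the ratios at members and at cerebellum-only non-DRACH sites ranked alike (Spearman's rho 0.86), and those at members and at sites in both lists less so (0.75). The 5-mers are not independent, since they share bases and libraries.

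The same 5-mers behaved differently in exons and introns. Among the 36132 members in exons of coding transcripts, GTACT was 11.5-fold (10.8 to 12.3) more frequent than among uncalled exonic adenosines nearby. Among the 37677 intronic members it was as frequent as around them, at 0.935-fold (0.765 to 1.14). GGATT stood at 8.30-fold (7.79 to 8.85) in these exons and 1.24-fold (1.04 to 1.47) in introns, CAACT at 4.07-fold (3.74 to 4.42) and 0.731-fold (0.606 to 0.882). GGACG stood at 16.1-fold (14.9 to 17.4) in exons, and in introns 19 members gave 2.55-fold (1.63 to 3.98). The whole class with G at +2 went from 6.12-fold (5.82 to 6.42) in exons to 1.04-fold (0.851 to 1.28) in introns. CCATC ran the other way, at 2.13-fold (1.94 to 2.35) in exons and 3.93-fold (3.69 to 4.19) in introns. Taking exons alone, 5-mers 1 base away from DRACH were 1.12-fold more frequent than nearby, and in introns alone 0.901-fold, so the ratio of 0.981 over all members joined opposite directions.

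Members at the A of ATC made up 11.8% (11.6 to 12), against 5.75% of uncalled non-DRACH adenosines within 50 nt. Their share was 17.2% (16.7 to 17.7) at cerebellum-only non-DRACH sites and 10.9% (10.2 to 11.6) at those in both lists. In introns ATC held 16.1% (15.7 to 16.5) of the members, 2.57-fold over nearby intronic adenosines, and in exons of coding transcripts 8.19% (7.92 to 8.48), or 1.57-fold. Downstream of members G was less frequent than downstream of uncalled non-DRACH adenosines nearby, at 0.785-fold next to the A and from 0.817-fold to 0.921-fold at positions +3 to +10. It was as frequent at +2, 1.01-fold. Upstream it was 1.03-fold at −1, 1.10-fold at −2, 0.886-fold to 0.918-fold at −3 to −6 and 0.969-fold to 0.990-fold farther out to −10. No G occurred in the 10 bases downstream of 22.4% (22.1 to 22.7) of the members and 29.0% (28.4 to 29.6) of the cerebellum-only non-DRACH sites. Directly upstream of the A, C stood at 39.8% of members and 28.8% of nearby adenosines, and directly downstream T was 1.29-fold more frequent at members than at nearby adenosines.

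Introns held the largest group of members, 42.4% (42.1 to 42.7), where an intron is a position inside a gene on the site's strand and on no annotated exon. Next came the 3′ UTR with 20.5%, the coding sequence with 18.6%, exons of other transcripts, which lack a complete coding sequence or a UTR, with 13.6%, positions outside genes with 2.60%, the 5′ UTR with 1.56% and the strand opposite a gene with 0.669%. Where exons of other transcripts inside coding genes are counted as introns, the intron share is 53.4%. By the first definition, which gave 42.4% for members, the share was 48.8% (48.1 to 49.5) at cerebellum-only non-DRACH sites. It was 8.77% (8.17 to 9.41) at non-DRACH sites in both lists, 10.5% (10.2 to 10.8) at cerebrum-only DRACH sites and 1.96% (1.82 to 2.10) at DRACH sites in both lists. Per chromosome the intron share of members ran from 30.9% to 53.2%. Within the members, introns held 5.34% of those with G at +2, 20.4% of those with C at −2, 29.2% of those with C or T at −1, 47.3% of those without C at +1 and 44.5% of those 2 or more bases away. Repeat-marked sequence held 20.8% (20.6 to 21.1) of members and 21.9% of uncalled adenosines nearby.

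**Figure D2:**
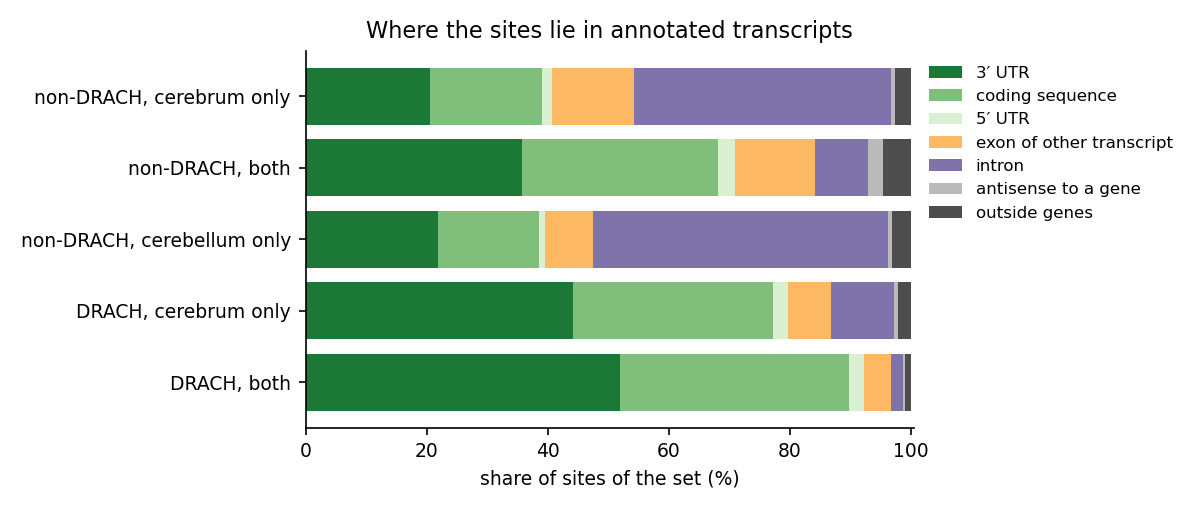
Share of sites (%) in each kind of annotated sequence, for cerebrum-only non-DRACH sites and 4 sets they were compared with. Introns hold 42.4% of the cerebrum-only and 48.8% of the cerebellum-only non-DRACH sites, and 8.77% of those in both lists.

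On coding transcripts, the position of members differed between classes of 5-mer. Of the 36132 members there, 12.6% (12.3 to 12.9) lay within 200 nt of the stop codon. Averaged over each member's own transcript, 9.82% of uncalled non-DRACH adenosines did, which gives 1.28-fold (1.25 to 1.32). The pooled adenosines of the same transcripts gave 9.26% and 1.36-fold. By class the own-transcript fold was 2.43 (2.22 to 2.66) with G at +2, 2.22 (1.98 to 2.48) with C at −2, 1.91 (1.80 to 2.03) with C or T at −1, 1.32 (1.25 to 1.40) without C at +1 and 0.992 (0.952 to 1.03) at 2 or more bases away. The background of each class was all uncalled non-DRACH adenosines, not those of the same class. How the 5-mers of a class are spread along transcripts therefore enters its fold. Cerebrum-only DRACH sites stood at 2.32 (2.27 to 2.36) against uncalled DRACH adenosines, so the values are not directly comparable. The class 2 or more bases away matched its transcripts. At non-DRACH sites in both lists the fold was highest with C or T at −1, 2.96 (2.73 to 3.2), then 2.74 (2.32 to 3.2) with C at −2, 2.53 (2.23 to 2.86) with G at +2 and 2.48 (2.21 to 2.76) without C at +1. At 2 or more bases away it was 1.08 (0.923 to 1.25). The GTACT members stood at 2.37 (2.10 to 2.68), those at the A of ATC at 1.02 (0.917 to 1.14). The 3′ UTR share of members on coding transcripts was 50.5% (50.0 to 51.0), and 48.7% of the adenosines of their own transcripts lay there.

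Closeness to DRACH sites also differed between classes, each again set against all uncalled non-DRACH adenosines. In the transcript, 22.1% (21.7 to 22.6) of the members lay within 50 nt of a DRACH site of the cerebrum list, against 14.8% of the uncalled adenosines of their own transcripts, which is 1.5-fold (1.47 to 1.53). The fold was 1.98 (1.86 to 2.09) with G at +2, 2.09 (1.95 to 2.23) with C at −2 and 2.01 (1.93 to 2.09) with C or T at −1, whose intervals overlap, then 1.57 (1.51 to 1.63) without C at +1. At 2 or more bases away it was 1.19 (1.15 to 1.23). Members at the A of ATC stood at 1.06 (0.964 to 1.16) and GTACT members at 2.40 (2.24 to 2.55). For non-DRACH sites in both lists the fold was 2.19 (2.13 to 2.25). Pooling the adenosines of all these transcripts gave 1.88-fold for the members.

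In internal exons, 78.5% (77.8 to 79.2) of the 12476 members in coding sequence lay within 100 nt of a splice junction, and 79.5% of the uncalled adenosines of their own exons did, a fold of 0.987 (0.978 to 0.996). Pooling the adenosines of these exons gave 49.1% and 1.60-fold. The pooled value counts each exon by its adenosines, and members lay mostly in short exons, with a median length of 162 nt. The corresponding median was 832 nt for cerebrum-only DRACH sites, which stood at 0.738-fold (0.712 to 0.764) in their own exons, and 1140 nt for DRACH sites in both lists, at 0.463-fold (0.436 to 0.490). Both DRACH folds are against uncalled DRACH adenosines, so they are not directly comparable with those of the members. Exons over 400 nt held 21.9% (21.2 to 22.7) of the members in internal exons. They held 67.3% (62.4 to 71.8) of the members with G at +2, whose median exon length was 728 nt. The junction fold of this class was 0.797 (0.691 to 0.910), against all uncalled non-DRACH adenosines of the same exons. Exons over 400 nt held 14.7% (13.9 to 15.5) of the members 2 or more bases away, with a median of 153 nt and a fold of 1.00 (0.990 to 1.01).

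**Figure D3:**
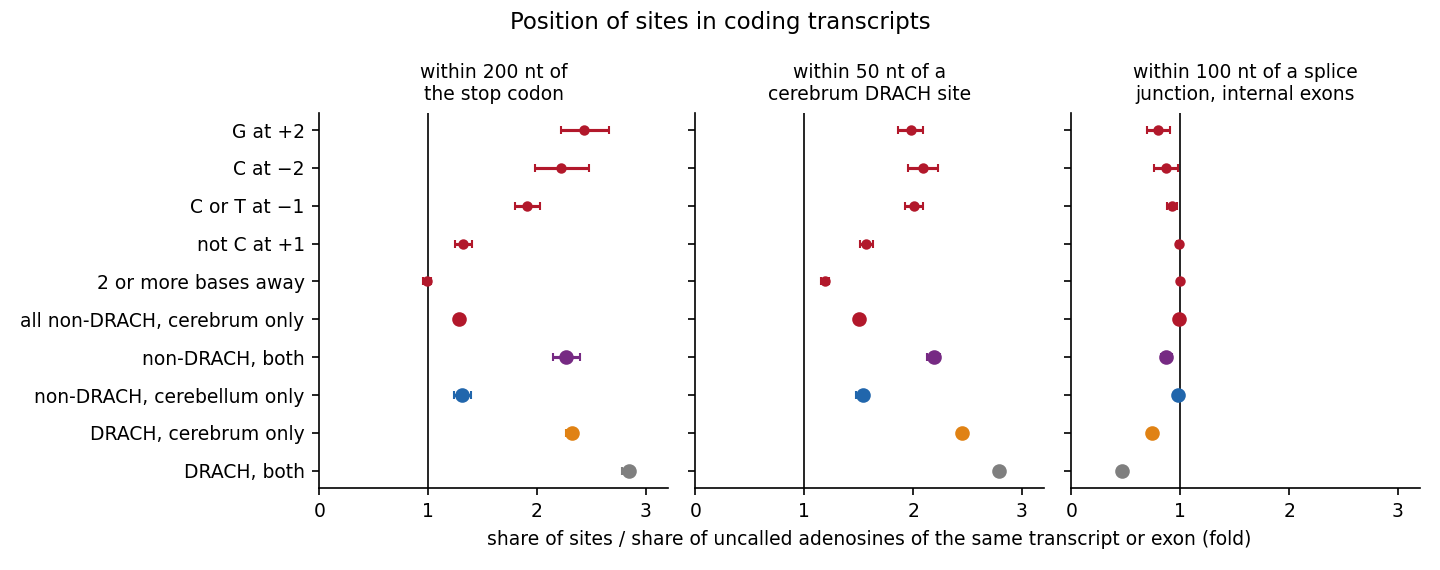
Share of sites within 200 nt of the stop codon, 50 nt of a cerebrum DRACH site and 100 nt of a splice junction, each divided by the share among uncalled adenosines of the same transcript or exon (fold). Small red points are the classes of the cerebrum-only non-DRACH sites, each against uncalled non-DRACH adenosines of any class. Large points are whole sets, DRACH sets against uncalled DRACH adenosines and non-DRACH sets against uncalled non-DRACH ones. Bars are 95% Wilson intervals over sites. The fold at the stop codon is 2.43 with G at +2 and 0.992 at 2 or more bases away, and that at splice junctions 0.797 and 1.00.

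Members clustered at short range with a peak at 6 nt. Spacing was not computed among uncalled adenosines, so only sets of listed sites are compared here. Another member lay within 10 nt of 12.6% (12.4 to 12.8) of them. The share with another site of the same set so close was 12.1% (11.7 to 12.6) for cerebellum-only non-DRACH sites and 19.9% (19 to 20.8) for non-DRACH sites in both lists. It was 6.22% (6.01 to 6.44) for cerebrum-only DRACH sites. The DRACH motif does not allow 2 sites 1 to 3 nt apart, so this last share is not like for like. Within 50 nt it was 19.2% (18.9 to 19.4) for members and 25.5% (25.1 to 25.9) for cerebrum-only DRACH sites. Pairs 6 nt apart numbered 1771, against 296 at 5 nt and 223 at 7 nt. The next most frequent spacings were 2 nt with 1234 pairs and 3 nt with 866. The 6-nt pairs held 3.97% of the members. A T followed both adenosines in 83.6% (81.8 to 85.2) of these pairs and both were ATC in 42.1% (39.8 to 44.4). No G lay between them in 70.8% (68.6 to 72.8). Introns held 61.6% (59.3 to 63.8) of the pairs and repeat-marked sequence 19.4% (17.6 to 21.3). Most runs were of 2 members, 1744 of them. Another 12 held 3, and 1 held 4, in the 3′ UTR of Peg10, an imprinted gene derived from a retrotransposon, from position 4756117 to 4756135 of chromosome 6. The 3 most frequent sequences of a pair, found in 33, 26 and 23 pairs, are shown from 2 bases before the upstream A, with the 2 triplets that start at a member in capitals.
Most frequent: ctATCtctATC
Next: ccATCtccATC
Then: ccATCcccATC
Outside the 6-nt pairs, ATC still held 9.86% (9.66 to 10.1) of the members. Per 1000 sites there were 19.9 pairs at 6 nt among members, 34.2 among cerebellum-only non-DRACH sites, 32.2 among non-DRACH sites in both lists and 5.92 among cerebrum-only DRACH sites. In each of these 4 sets 6 nt was the most frequent of the spacings from 1 to 30 nt.

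**Figure D4:**
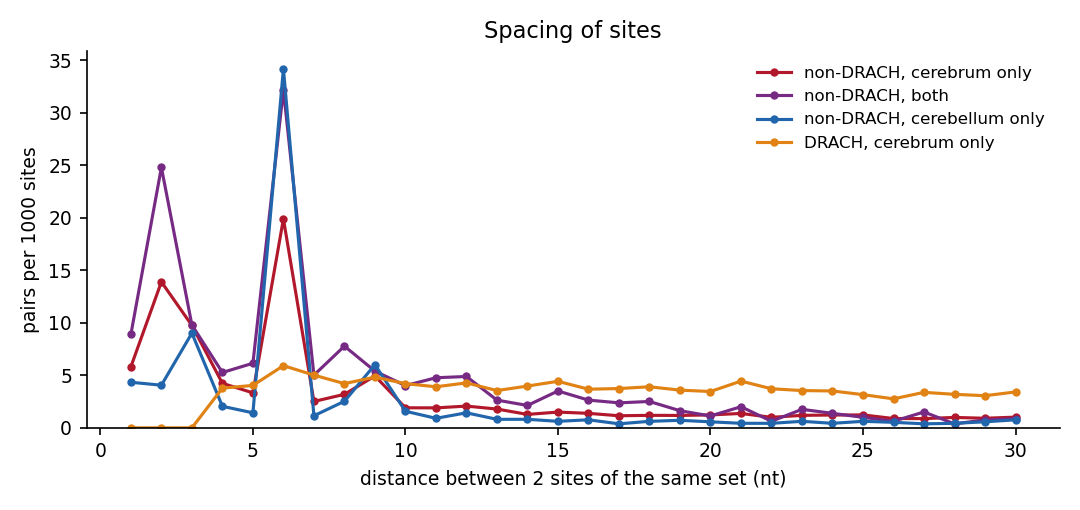
Pairs of sites of the same set per 1000 sites at each distance from 1 to 30 nt. All 3 non-DRACH sets peak at 6 nt, at 19.9 for cerebrum-only, 34.2 for cerebellum-only and 32.2 for sites in both lists, and cerebrum-only DRACH sites at 5.92.

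The densest stretches of 50 nt held few members. Windows with 5 lay in an intron of the lincRNA Gm38353, chr3:73341671-73341720, and in an intron of Ctnnd2, which encodes delta-catenin, chr15:30394650-30394699, both on the + strand and both with 0 cerebellum sites. The first of the windows with 4, by position, lay in the 3′ UTR of Ncoa2, a nuclear receptor coactivator, chr1:13142447-13142496.

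Intronic members lay in 3905 genes with a median of 2 members each, and the 100 genes with most held 41.5% (41.0 to 42.0) of them. Genes over 500 kb held 42.0% (41.5 to 42.5) of the intronic members, 50.3% (49.3 to 51.2) of the intronic cerebellum-only non-DRACH sites and 35.7% (34.4 to 37.1) of the intronic cerebrum-only DRACH sites. Ptprd, a receptor tyrosine phosphatase of synapse organisation that spans 2270 kb, held most, 673. Then came Lsamp, an adhesion molecule of the limbic system, with 498, and Rbfox1, a neuronal splicing regulator, with 475. The neurexin Nrxn3, a presynaptic adhesion molecule, held 420. The teneurin Tenm2 held 395, the protocadherin Pcdh9 368 and the adhesion molecule Cadm2 363. Nrg3, a ligand of the receptor ErbB4, held 327, Dlg2, a postsynaptic scaffold, 324, Celf2, an RNA-binding splicing factor, 300 and Auts2, a gene of neurodevelopment, 280. These 11 genes, of the 12 with most, also held intronic cerebellum-only non-DRACH sites, and in different proportion: Lsamp had 193 and Pcdh9 161, while Ptprd had 97, Dlg2 38, Auts2 31 and Celf2 25. Over all genes there were 10229 such sites beside 37677 intronic members, and 699 intronic non-DRACH sites were in both lists. In each of the 11 genes at most 13 intronic non-DRACH sites were in both lists, the most in Nrg3. Per length of gene, the members of these 11 ranged from 17.1 per 100 kb in Dlg2 to 43.1 in Pcdh9. Fewer cells of a type and less RNA per cell cannot be told apart in these tissue samples, and the lists carry no measure of expression.

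**Figure D5:**
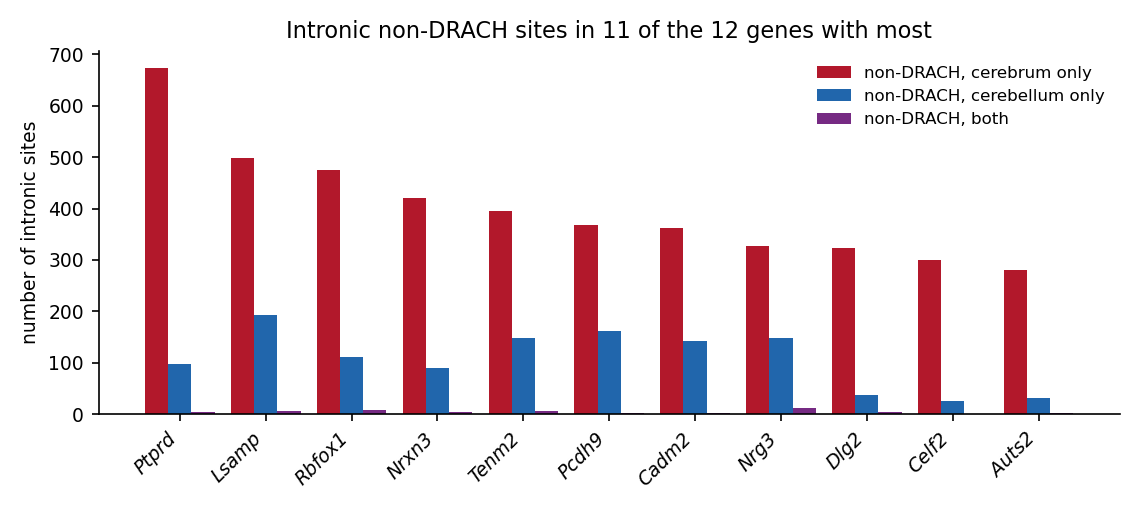
Number of intronic non-DRACH sites in 11 of the 12 genes with most cerebrum-only ones, by list. Ptprd has 673 in the cerebrum list only and 97 in the cerebellum list only, and Pcdh9 368 and 161. In each gene at most 13 are in both lists. Over all genes 699 are, beside 37677 cerebrum-only and 10229 cerebellum-only ones.

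A list of 20 long neuronal genes held 5424 members, 5205 of them intronic, with a median of 215 per gene and a member in every gene. The gene with fewest was Dpp6, an auxiliary subunit of potassium channels, with 59. In 19 of the 20 the cerebrum list held more sites than the cerebellum list, as it did in 89.3% (88.8 to 89.8) of the 15153 genes with a site in either list and in 92.8% (88.5 to 95.6) of the 209 such genes over 500 kb. A list of abundant mRNAs, 19 of them on these chromosomes, held 113 members, 73 of them intronic, with a median of 2. Per length of gene the medians ran the other way, 19 members per 100 kb in the long genes and 25.9 in the abundant mRNAs. Among the abundant mRNAs, 28 members lay in Map1b, a microtubule-associated protein, 23 in Basp1 and 22 in Gap43, both proteins of growth cones. Introns held 19, 18 and 19 of these. Actb held 2, Gapdh 1, and Eef1a1 and Actg1 none.

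In exons of coding transcripts, members were spread thinly over 9561 genes with a median of 3 each, and 28.9% of these genes had 1. D10Wsu102e had most, 70, of which 69 were in the 3′ UTR and 41 in repeat-marked sequence, between positions 83364507 and 83487833 of chromosome 10. Vmn2r53, a vomeronasal receptor gene, had 31, all in the 3′ UTR and 29 of them in repeat-marked sequence, and had no DRACH site in either list. The other genes with most had DRACH sites as well, which were counted over the whole gene, introns included. The cytoskeletal linker Macf1 had 35 members in coding exons beside 92 cerebrum DRACH sites, and the transcription factor Zbtb20 had 32 beside 51. Over the whole gene, Macf1 held 82 members and Zbtb20 98. The giant cadherins Fat1 and Fat4 had 31 beside 76 and 26 beside 152. The matrix proteoglycan gene Vcan had 31 beside 95, and Pclo, which encodes the presynaptic protein Piccolo, 25 beside 121. Pcdh10 and Vps13d had 27 each, Ntrk3, the neurotrophin-3 receptor, 25, and the zinc finger gene Zbtb37 25. Among these 12 genes, the members of the whole gene that were 1 base away from DRACH ranged from 7 of 29 in Pcdh10 to 23 of 33 in Fat4, with 19 of 70 in D10Wsu102e and 8 of 31 in Vmn2r53.

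Among exons of other transcripts, Kcnq1ot1 held most members, 66. This imprinted antisense RNA silences genes of its cluster, and its members ran from position 143219098 to 143295912 of chromosome 7. It had 72 cerebrum DRACH sites too. Such isoforms of Ank3 and Ank2, which encode ankyrins of the axon, held 24 and 22, those of Ube2d3, a ubiquitin-conjugating enzyme, 23 and those of Ankrd17 21, and the unclassified transcript 9330162G02Rik held 21. A list of 14 noncoding RNAs, counted over whole genes, had a member in 13 genes and 347 in all, 171 of them intronic. Sox2ot, which overlaps the Sox2 locus, had 87, Snhg14 58, Rian 33 and Dlx6os1, transcribed beside the forebrain regulators Dlx5 and Dlx6, 21. Introns held 72, 43, 16 and 10 of these. Malat1, the abundant nuclear speckle RNA, had 9 and Meg3 12, and Peg13 had none and no site in either list.

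The tissue labels were set against marker genes by the number of all listed sites. Each of 13 cerebrum genes had more sites in the cerebrum list, as most genes did, 366 against 35 in all, and 11 of them had at most 1 cerebellum site. Of 15 cerebellum and hindbrain genes, 4 had no site in either list, and 4, Cbln1, Zic1, Zic2 and Calb1, had more in the cerebrum list. The 15 had 58 sites in the cerebrum list against 88 in the cerebellum list. En2 had 0 against 9, and En1 0 against 6. Members in the cerebrum genes numbered 129, of which 24 lay in Bcl11b, a regulator of corticospinal neurons, and 8 in Tbr1, a transcription factor of deep-layer cortical neurons. Dlx1, a transcription factor of GABAergic neurons, also had 8, and Emx1 had 1. The hindbrain genes had 16, with 7 in Zic1. Among genes of other cell types there were 28 members over 4 astroglial genes, 15 over 4 of the oligodendrocyte lineage, 3 over 3 of microglia, 9 over 3 of endothelium and none over the haemoglobin genes. The median per gene was 6 for the astroglial genes and 3.50 for those of the oligodendrocyte lineage, against 5 for the cerebrum genes. Their part in the results was not tested.

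The METTL16 context TACAGAGAA, with the A between C and G, was looked for on the site strand because it lies outside DRACH. It surrounded 10 members, or 0.0113% (0.00612 to 0.0207), against 0.00459% (0.00375 to 0.00563) of uncalled non-DRACH adenosines within 50 nt. Of the 10, 7 lay in annotated small nuclear RNA genes, and the others in the 3′ UTR of Raph1 and in introns of Syt1, the calcium sensor of synaptic vesicle release, and Grip1, a scaffold of glutamate receptors. The following lines give 4 of these members, then a site of Mat2a found in both lists, with the 9 bases in capitals.
Gm23453, small nuclear RNA gene, chr1:33422764-33422784, + strand: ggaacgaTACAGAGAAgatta
Raph1, chr1:60488070-60488090, − strand: gtatataTACAGAGAActgat
Syt1, chr10:108815865-108815885, − strand: cctgaacTACAGAGAAtgcca
Grip1, chr10:119468858-119468878, + strand: gcattgtTACAGAGAAaccta
Mat2a, chr6:72434240-72434260, − strand: cgtaggtTACAGAGAAgcctt
The 21 bases at Gm23453 occurred at 3 members, at 2 small nuclear RNA genes with the site in both lists and at 3 with it in the cerebellum list only, so these copies are not told apart by this window and which copy is listed is uncertain. Mat2a had 4 sites in this context, all in both lists, and its 1 member lay elsewhere. The genes Rnu6 and Rn7sk themselves had no site in either list.

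Annotated transcript starts held few members. In the 6 bases from a start there were 148, or 0.167% (0.142 to 0.196), of which 40 were at the first base, and at offsets of 1 to 5 nt the counts ran from 17 to 25. Of the 40, 20 followed a C in the genome. Rpl11, a ribosomal protein gene, had 3 in the 6 bases, and BX649560.1, Btbd19, Gas5 and Kif1a 2 each.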

How the data were processed

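GLORI libraries of 1 cerebellum and 1 cerebrum sample were used. The authors mapped reads to mm10 and to a copy carrying PWK bases, ran GLORI-tools on each, joined the site sets and kept sites above a minimum methylation rate and read count. The deposited files list the chromosome, start, end and strand of each retained site, 1 nt long, and no other unit or score, so depth is unknown and no count model applies. Here, positions were set against GRCm38, the assembly mm10 names, from RefSeq, and GENCODE M21, which is not the release the study names. A PWK variant can change a 5-mer read from GRCm38. Sites on coding exons took the longest isoform with a complete coding sequence that covers them. The rest fell, by precedence, on exons of remaining transcripts, introns, antisense sequence or outside genes. Uncalled adenosines within 50 nt, or in the same transcript or exon, gave the background. The members and gene lists were chosen with earlier results of these data known. Genes were named by their number of members (12 in coding exons, 12 in introns, 6 in other exons; some are not reported here) and sites by the 2 most frequent 5-mers of each class. The search for the METTL16 context, and the comparison of classes within exons and within introns, were added later. No test was made, as each tissue has 1 library. Steps were tested on simulated sites. Python 3.11.15, numpy 2.4.6, pandas 2.3.3, scipy 1.17.1 and matplotlib 3.10.9 were used. Alternatives covered the window sizes, isoform set, repeats, isolated sites and the background.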

Additional observations from a re-analysis of the deposited data

Results flagged for a closer look

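Some sites lay outside the rule that chose the members and were not analysed. The cerebrum list held 2790 further non-DRACH sites on chromosome X that were absent from the cerebellum list, 13 on chromosome Y and 12 on the mitochondrial genome. The chromosome Y entries come from a sample recorded as female. On chromosomes 1 to 19, 296 cerebrum-only sites were at a position without A in GRCm38 on their strand. Whether these 296 lie at PWK variants was not tested.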

How the results depend on the processing

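The number of members was 88646 where absence was also required within 1 nt. Where members with another member within 10 nt were left out, the share 1 base away from DRACH was 39.1%, the intron share 43.1% and the ATC share 9.85%. Outside repeat-marked sequence the intron share was 41.2% and the ATC share 12%. The intron share was 53.4% where exons of coding transcripts alone took precedence. The ratio of 5-mers 1 base away from DRACH was 0.901 in introns alone and 1.12 in exons of coding transcripts alone, on opposite sides of 1. The junction fold over pooled adenosines was 1.79 at 50 nt and 1.42 at 200 nt. Against each member's own exon, an alternative chosen after seeing the data, it was 0.987. The stop codon fold was 1.28 at 400 nt and 1.28 against each member's own transcript. The fold near cerebrum DRACH sites was 2.01 at 10 nt, 1.5 at 200 nt and 1.5 against the own transcript, both own-transcript alternatives chosen after seeing the data. Members with another within 50 nt made up 19.2%, and in introns alone 11.3% had another within 10 nt. The remaining alternatives (basic isoforms, a background of 200 nt, and the repeat and isolation settings for other shares) stayed within the intervals of the values reported. A threshold on the methylation level could not be applied, since the lists hold none. No paired analysis was possible because each tissue has 1 library and no test was made.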
